A study of Homo sapiens with 24 samples.

Results

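The genes described here are 10 receptor tyrosine kinases from outside the HER and Eph families: IGF1R, MET, MST1R, AXL, RET, DDR1, FGFR1, FGFR2, FGFR3 and FGFR4. They were chosen by name, with earlier results of these data known. They are the rows of the count table that carry these symbols and make up 10 of the 60617 rows. IGF1R is itself a member of the insulin receptor family. The cells were SKBR3, an established human breast cancer line that carries many copies of ERBB2, which encodes HER2. Expression was measured by RNA-seq of polyA RNA in 24 libraries. The control group was 8 libraries of cells that received no treatment. The Herceptin group was 8 libraries of cells given 4 µg/ml Herceptin, the original trastuzumab antibody against HER2. The third group was 8 libraries of cells given a biosimilar of trastuzumab, named ApoTras in the labels' protocols, which do not clearly say that the same dose applied to it. All 3 groups were grown in medium with 10% fetal bovine serum, which was changed on days 1 and 4, and RNA was extracted on day 7. All results come from this 1 cell line, and no group given vehicle alone or an unrelated antibody is described in the labels, so the antibody and its vehicle cannot be told apart. The study compared the gene expression of treated and untreated cells and of cells given either antibody product.

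Receptor tyrosine kinases span the cell membrane. A ligand outside the cell brings receptor chains together, the kinase domains inside phosphorylate each other, and docking proteins then carry the signal into the RAS-MAPK and PI3K-AKT pathways. HER2 feeds the same pathways, and in HER2-positive breast cancer other receptor kinases are known as bypass routes that can keep these pathways active when HER2 is blocked. IGF1R binds the insulin-like growth factors, MET binds hepatocyte growth factor (HGF), and MST1R, also called RON, binds macrophage-stimulating protein. AXL binds GAS6, RET binds ligands of the GDNF family together with a co-receptor, DDR1 binds collagen, and the FGFR receptors bind fibroblast growth factors with heparan sulfate.

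Library totals ran from 9070186 to 12260086 expected counts, with means of 9982334 in control, 11489206 in Herceptin and 10271053 in biosimilar libraries. Of 12 luminal breast line markers 10 were tested, and their summed level was 14372 to 15783 CPM (counts scaled to a common library total) in control, 15919 to 16620 CPM in Herceptin and 15247 to 16839 CPM in biosimilar libraries. CDH1 and PGR were not tested, for too few counts. With Herceptin 6 of the 10 were higher than in control and 2 lower, and with the biosimilar 5 were higher and 1 lower. Of all genes tested 46.4% passed with Herceptin and 48% with the biosimilar in either direction, at an edgeR adjusted p below 0.05. Of 13 mesenchymal and fibroblast markers only FN1 and COL1A1 were tested. FN1 rose from 149.9 CPM in control to 228.9 CPM with Herceptin and 219.6 CPM with the biosimilar, while COL1A1 fell with either antibody. The whole list, most of it FN1, summed to 145.4 to 166.5 CPM in control, 223.5 to 243.8 CPM in Herceptin and 161.0 to 241.4 CPM in biosimilar libraries. PDPN was at 0 in every library. Of 9 leukocyte markers CD68 and CSF1R were tested and both rose with either antibody, while PTPRC, which defines leukocytes, reached no more than 0.203 CPM and MS4A1 was at 0 in every library. The leukocyte list summed to 47.3 to 57.9 CPM in control, 74.3 to 80.0 CPM in Herceptin and 64.6 to 81.1 CPM in biosimilar libraries. Of 7 endothelial markers CDH5 and ESAM were tested and CDH5 rose, while PECAM1 reached no more than 0.0987 CPM, and the list summed to 50.3 to 57.1, 57.4 to 68.8 and 59.0 to 67.4 CPM. The part of these markers in the results below was not tested. Biosimilar replicate 6 had the lowest FN1 level of its group, 156.6 CPM beside a group mean of 219.6 CPM. The check of the receptors for lone libraries, given at the end, did not flag it. Values without this library are given beside the results it changed.

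The sequences shown first are the promoter windows of the 5 receptors on printable chromosomes whose counts changed, since these receptors moved in opposite directions. Each is the 250 bases upstream of the RefSeq gene start (GRCh38.p14), 5′ to 3′ on the gene's strand, and capitals mark GGGCGG or its reverse complement CCGCCC, the core of a GC box. The first 3 receptors rose with either antibody and the last 2 fell. Their places are chr15:98648289-98648538 (plus strand) for IGF1R, chr3:49903874-49904123 (minus strand) for MST1R, chr10:121598445-121598694 (minus strand) for FGFR2, chr4:1793043-1793292 (plus strand) for FGFR3 and chr5:177086665-177086914 (plus strand) for FGFR4.
IGF1R: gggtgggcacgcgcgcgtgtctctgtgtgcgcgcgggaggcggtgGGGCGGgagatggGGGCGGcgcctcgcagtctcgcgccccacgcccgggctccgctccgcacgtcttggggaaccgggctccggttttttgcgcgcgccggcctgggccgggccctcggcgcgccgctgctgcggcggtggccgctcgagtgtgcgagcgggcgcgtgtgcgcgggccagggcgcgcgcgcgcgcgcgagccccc
MST1R: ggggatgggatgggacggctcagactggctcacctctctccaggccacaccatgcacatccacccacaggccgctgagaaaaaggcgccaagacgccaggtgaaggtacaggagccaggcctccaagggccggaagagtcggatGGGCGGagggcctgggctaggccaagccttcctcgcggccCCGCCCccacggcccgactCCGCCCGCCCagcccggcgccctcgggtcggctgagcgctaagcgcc
FGFR2: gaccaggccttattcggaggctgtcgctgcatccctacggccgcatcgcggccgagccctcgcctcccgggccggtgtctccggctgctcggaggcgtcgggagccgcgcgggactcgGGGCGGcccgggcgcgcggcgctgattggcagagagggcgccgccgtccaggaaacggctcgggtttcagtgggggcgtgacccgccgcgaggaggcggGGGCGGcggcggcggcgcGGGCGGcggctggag
FGFR3: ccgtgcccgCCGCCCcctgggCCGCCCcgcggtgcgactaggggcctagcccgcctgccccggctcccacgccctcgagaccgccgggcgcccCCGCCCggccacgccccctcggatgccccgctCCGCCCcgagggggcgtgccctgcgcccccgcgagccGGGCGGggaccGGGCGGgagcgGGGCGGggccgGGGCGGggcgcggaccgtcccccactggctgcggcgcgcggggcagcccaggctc
FGFR4: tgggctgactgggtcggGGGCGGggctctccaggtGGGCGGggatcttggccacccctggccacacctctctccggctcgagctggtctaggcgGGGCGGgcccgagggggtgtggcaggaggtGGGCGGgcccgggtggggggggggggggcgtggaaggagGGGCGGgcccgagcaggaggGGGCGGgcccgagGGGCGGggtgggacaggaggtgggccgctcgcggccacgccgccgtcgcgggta

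Windows were matched for 9 of the 10 genes, all but FGFR1, and where RefSeq lists several starts the window nearest to the annotated gene start was used. GGGCGG, on either strand and allowing overlaps, was in 8 of the 9 windows, against 42.6% of 35116 windows of the same length. It occurred 2 times in IGF1R, 4 times in MST1R and 3 times in FGFR2, which rose, and 8 times in FGFR3 and 7 times in FGFR4, which fell. In MET, which did not pass, it occurred 2 times, and in AXL and RET, which had too few counts, 2 and 5 times. A link between these numbers and the direction of change was not tested. The window used for DDR1 did not hold it, and 4 of the 8 windows listed for DDR1 did. Of the windows listed for the other genes with several starts, 2 of 5 held it in FGFR2, 1 of 2 in FGFR4, 1 of 2 in AXL and 2 of 2 in RET. GC content was 81.2% in IGF1R, 70.8% in MST1R, 78.4% in FGFR2, 86.8% in FGFR3 and 79.6% in FGFR4, against a median of 58% over all windows. TGTTTAC, a forkhead motif, was in 0 of the 9 windows and in 2.98% of all windows. TATAAA was in 0 of the 9 and in 10.7% of all windows. CCAAT was in the DDR1 and FGFR2 windows, 2 of the 9, and in 32.0% of all. TGANTCA, the core of AP-1 sites with N for any base, was in 0 of the 9 and in 6.57% of all. GGAAG, the core of ETS sites, was in 5 of the 9 and in 65.1% of all. A match is a match of letters only, and these windows carry no measurement of binding in these data.

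Of the 10 receptors, 8 had enough counts to be tested, and AXL and RET did not. Against control, 3 receptors rose with Herceptin (IGF1R, MST1R and FGFR2) and 3 fell (FGFR1, FGFR3 and FGFR4), at an edgeR adjusted p below 0.05. MET and DDR1 did not pass the test. Of all 13536 genes tested in that comparison 46.4% passed, 22.7% higher and 23.8% lower, and in 17% the groups did not overlap, so that a call on its own is common here. In 6 of the 8 tested receptors the Herceptin and control libraries did not overlap. With the biosimilar, 3 were higher (IGF1R, MST1R and FGFR2) and 3 lower (FGFR1, FGFR3 and FGFR4), where 48% of all genes passed, 23.4% higher and 24.6% lower. The biosimilar and control libraries did not overlap in 5 of the 8, against 14.9% of all genes. Both comparisons use the same control libraries. The median size of the log2 fold change of the 8 receptors was 0.38 with Herceptin and 0.39 with the biosimilar, beside 0.14 and 0.15 over all genes tested. Because the receptors were chosen with earlier results of these data known, setting them beside all genes is a description and not a test. In bulk RNA, fewer cells that express a gene and less of its RNA per cell cannot be told apart.

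**Figure D1:**
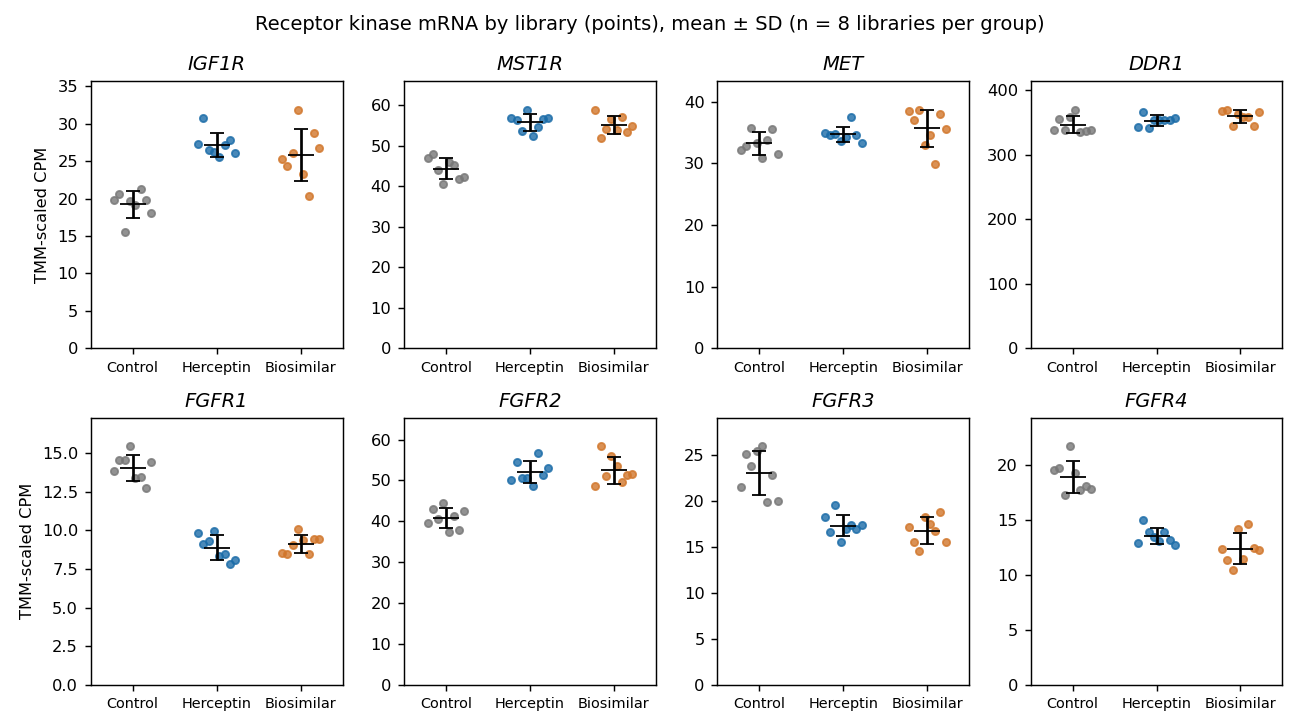
Level of each of the 8 tested receptors in the 24 libraries, in CPM scaled by TMM factors; points are libraries in the control, Herceptin and biosimilar groups, and black marks are the group mean ± SD (n = 8). IGF1R, MST1R and FGFR2 sit higher and FGFR1, FGFR3 and FGFR4 lower in both antibody groups. The groups overlap for MET and DDR1, and the biosimilar group overlaps control for IGF1R.

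IGF1R (chr15:98648539-98964530, plus strand, GRCh38) is the receptor for IGF1 and IGF2 and signals mainly through the docking proteins IRS1 and IRS2. Its lowest, median and highest levels were 15.5, 19.7 and 21.3 CPM in control libraries, 25.5, 26.8 and 30.8 CPM in Herceptin libraries and 20.3, 25.7 and 31.9 CPM in biosimilar libraries. All Herceptin libraries lay above all control libraries, whereas the lowest biosimilar library, replicate 6, lay within the control range. IGF1R rose by 41.2% with Herceptin (log2 fold change 0.50, SE 0.066, n = 8 per group, edgeR adjusted p = 7.85e-08), the largest rise among the receptors tested. It rose by 34.3% with the biosimilar (log2 fold change 0.43, SE 0.068, edgeR adjusted p = 2.17e-06). Without biosimilar replicate 6 the latter was 0.47.

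The IGF1 and IGF2 ligands were near 0, with no library above 0.101 CPM for IGF1 or 0.334 CPM for IGF2. Of 10 genes of IGF ligands, binding proteins and the clearing receptor IGF2R, 5 were tested. In Herceptin libraries 3 were higher and 2 lower, in biosimilar libraries 3 were higher and 1 lower, and the median log2 fold changes were 0.23 and 0.21. Over all genes 46.4% passed with Herceptin and 48% with the biosimilar. IGFBP2, a secreted binding protein, had the smallest p in this list: its level fell from 8.54 ± 1.17 CPM (SD, n = 8) in control to 5.20 ± 0.75 CPM with Herceptin and 4.90 ± 0.84 CPM with the biosimilar. Its log2 fold changes were -0.71 (edgeR adjusted p = 1.70e-07) and -0.80 (edgeR adjusted p = 2.39e-08), and neither antibody group overlapped control. IGFBP3 rose from 12.2 to 15.7 and 15.3 CPM, with overlapping ranges. IGF2R, which takes up IGF2 without kinase signalling, rose from 334.3 to 391.2 and 386.5 CPM, and the biosimilar libraries overlapped control. IGFBP5 went from 399.9 to 357.9 CPM with Herceptin (log2 fold change -0.16, edgeR adjusted p = 1.68e-04). It was 378.4 CPM with the biosimilar and did not pass there (edgeR adjusted p = 0.0518), and it passed without control replicate 3, 5 or 7 or biosimilar replicate 2, 4 or 8 (edgeR adjusted p = 0.0175 to 0.0409).

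MET (chr7:116672390-116798386, plus strand) and MST1R (chr3:49887002-49903873, minus strand) form a family of 2 receptors with a shared architecture of a sema domain outside the cell. MET ran from 30.8 through a median of 33.1 to 35.8 CPM in control, from 33.4 through 34.6 to 37.5 CPM with Herceptin and from 29.9 through 36.4 to 38.7 CPM with the biosimilar. These ranges overlapped, and biosimilar replicate 6 held the lowest MET level of all libraries. The log2 fold change of MET was 0.06 with Herceptin (95% interval -0.03 to 0.16, edgeR adjusted p = 0.287). With the biosimilar it was 0.10 (95% interval 0.0056 to 0.196, edgeR adjusted p = 0.0750), and leaving out any 1 of 4 libraries brought it past the threshold: without biosimilar replicate 6 it was 0.14 (edgeR adjusted p = 0.00903), and without control replicate 3, control replicate 7 or biosimilar replicate 4 the adjusted p was 0.0487, 0.0492 and 0.0471.

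MST1R stood apart from MET. Its lowest, median and highest levels were 40.6, 44.7 and 47.9 CPM in control, 52.3, 56.5 and 58.8 CPM with Herceptin and 52.1, 54.6 and 59.0 CPM with the biosimilar. Every library of either antibody group lay above every control library. It rose by 25.8% with Herceptin (log2 fold change 0.33, SE 0.038, edgeR adjusted p = 1.73e-09) and by 24.4% with the biosimilar (log2 fold change 0.32, SE 0.038, edgeR adjusted p = 7.25e-09). Counts of MST1R were not whole in 8.33% of libraries, which means that a few of its reads were divided with another place in the genome.

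The ligands of both receptors circulate as inactive precursors that surface and secreted proteases cleave. Of 10 genes of ligands, activating proteases and their inhibitors, 6 were tested. In either antibody group 5 were higher and 0 lower than in control, beside 22.7% of all genes higher with Herceptin and 23.4% with the biosimilar. The median log2 fold changes were 0.45 and 0.46. HGF was at the limit of detection, at no more than 0.0951 CPM in any control library and 0 in the antibody libraries, too low for a difference to be seen. MST1, the ligand of MST1R, went from 4.49 ± 0.87 CPM in control to 6.59 ± 0.85 CPM with Herceptin (log2 fold change 0.55, edgeR adjusted p = 3.65e-05) and 6.39 ± 0.70 CPM with the biosimilar (log2 fold change 0.51, edgeR adjusted p = 1.51e-04). In 75% of libraries the MST1 count was not whole, because some of its reads also fit another place, and the value is uncertain. TMPRSS2, a surface serine protease, rose from 66.7 ± 4.4 CPM to 101.1 ± 5.0 and 106.1 ± 3.9 CPM, with log2 fold changes of 0.60 and 0.67. The ranges of TMPRSS2 did not overlap between control and either antibody. SPINT1, an inhibitor of these proteases, rose from 473.1 to 642.1 and 647.4 CPM, also with no overlap. ST14 (matriptase) rose by less, from 319.1 to 339.9 and 336.9 CPM, with log2 fold changes of 0.09 and 0.08 and overlapping ranges, and did not pass with the biosimilar without control replicate 7 (edgeR adjusted p = 0.0526). PLAU, the urokinase protease, rose from 16.5 to 22.5 and 22.8 CPM, with counts not whole in 70.8% of libraries. The inhibitor SPINT2 did not pass in either comparison, and it passed in both without control replicate 5 (edgeR adjusted p = 0.0141 and 0.0405).

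A list of 12 genes held sheddases of MET and AXL, protease inhibitors of the TIMP family, and surface or cytoplasmic partners, and 11 were tested. In either antibody group 9 were higher and 0 lower, beside 22.7% of all genes higher with Herceptin and 23.4% with the biosimilar. Of the sheddases, ADAM10 rose and ADAM17 did not pass in either comparison. The protease inhibitors TIMP1 and TIMP2 both rose, and TIMP3 was not tested. CD44, a co-receptor of MET in some of its isoforms, rose from 12.6 ± 1.5 CPM to 25.5 ± 1.9 CPM with Herceptin (log2 fold change 1.01, edgeR adjusted p = 1.57e-16) and 23.6 ± 1.7 CPM with the biosimilar (log2 fold change 0.90, edgeR adjusted p = 1.08e-14). No antibody library overlapped control for CD44. PLXNB2, a plexin that associates with MET and MST1R, rose from 695.3 to 907.2 and 907.0 CPM. ITGB4, an integrin chain that associates with MET, rose from 53.2 to 77.3 and 76.8 CPM. TIMP2 was 389.8 CPM in control, 568.6 CPM with Herceptin and 558.6 CPM with the biosimilar, with counts not whole in 83.3% of libraries. The ranges of PLXNB2, ITGB4 and TIMP2 did not overlap control in either comparison.

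AXL (chr19:41219203-41261766, plus strand) and RET (chr10:43077027-43130351, plus strand) were at the limit of detection in every group. AXL had 3 counts in all control libraries together, 4 in Herceptin and 7 in biosimilar libraries, with 5, 5 and 4 libraries at 0 and no library above 3 counts. RET had 4, 2 and 1 counts, with 4, 6 and 7 libraries at 0. A group total of 3 counts corresponds to 0.0376 CPM in control, 0.0326 CPM in Herceptin and 0.0365 CPM in biosimilar libraries, so differences at this level were not detectable at this depth. These limits cover counting error only. With no filter on low counts, neither gene passed in any of the 3 comparisons.

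The known partners of both were also scarce. The AXL ligand GAS6 averaged 0.45 CPM in control, 0.49 CPM with Herceptin and 0.47 CPM with the biosimilar, and PROS1 was below 0.165 CPM in every library. Of the relatives of AXL, TYRO3 fell from 65.0 ± 2.7 CPM to 60.3 ± 2.4 CPM (log2 fold change -0.11, edgeR adjusted p = 0.0121) and 59.6 ± 3.1 CPM (log2 fold change -0.13, edgeR adjusted p = 0.00378). MERTK was 1.30 CPM in control and 1.87 CPM with Herceptin (log2 fold change 0.52, edgeR adjusted p = 0.0325), and 1.77 CPM with the biosimilar (edgeR adjusted p = 0.0761). The Herceptin call for MERTK was lost without control replicate 4, 5 or 8 or Herceptin replicate 2, 3 or 8 (edgeR adjusted p = 0.0636 to 0.0995), and the biosimilar comparison passed without control replicate 7 (edgeR adjusted p = 0.0420). VIM and ZEB1, mesenchymal genes often seen with AXL, were near 0, with VIM at no more than 0.407 CPM and ZEB1 at no more than 0.184 CPM. Of 10 RET ligands and co-receptors 3 were tested, NRTN, PSPN and GDF15, and 0 passed in either comparison, with 4 genes of the list at 0 in every library. GDF15, which acts through RET and its co-receptor GFRAL, averaged 5.53 CPM in control and 5.78 and 5.93 CPM in the antibody groups.

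DDR1 (chr6:30876421-30900156, plus strand), the collagen receptor of epithelial cells, had the highest level of the 10 per exon length. Its lowest, median and highest levels were 335.1, 338.8 and 369.2 CPM in control, 342.0, 354.0 and 367.0 CPM with Herceptin and 344.9, 361.2 and 369.9 CPM with the biosimilar. The 3 ranges overlapped, although all 8 libraries of either antibody lay above the control median. The log2 fold change was 0.03 with Herceptin (95% interval -0.03 to 0.08, edgeR adjusted p = 0.416) and 0.05 with the biosimilar (95% interval 0.0007 to 0.105, edgeR adjusted p = 0.0893). The latter passed without control replicate 5 (edgeR adjusted p = 0.0312) or biosimilar replicate 3 (edgeR adjusted p = 0.0464). Of 10 genes, collagen chains and the relative DDR2, 6 were tested. In Herceptin libraries 3 were higher and 2 lower, and in biosimilar libraries 2 were higher and 1 lower. Over all genes 46.4% passed with Herceptin and 48% with the biosimilar. COL4A1, a chain of basement membrane collagen, rose from 2.11 ± 0.45 CPM to 4.26 ± 0.88 CPM (log2 fold change 1.01, edgeR adjusted p = 1.15e-06) and 3.68 ± 0.92 CPM (log2 fold change 0.79, edgeR adjusted p = 8.70e-05). Its partner chain COL4A2 rose from 6.03 to 7.37 and 7.27 CPM, and COL1A1, a chain of fibrillar collagen, fell from 4.40 to 3.47 and 3.45 CPM. COL5A1 went from 13.3 to 11.8 CPM with Herceptin (edgeR adjusted p = 0.0463). DDR2 was 0.99 CPM in control and 1.46 CPM with Herceptin (edgeR adjusted p = 0.0368). COL5A1 and DDR2 did not pass with the biosimilar. These calls depended on single libraries: COL5A1 lost its Herceptin call when any 1 of 11 libraries was left out (edgeR adjusted p up to 0.145), and DDR2 without control replicate 2, 4 or 8 or Herceptin replicate 1 or 8 (edgeR adjusted p up to 0.121). COL5A1 passed with the biosimilar without biosimilar replicate 4 or 8 (edgeR adjusted p = 0.0387 and 0.0492), and COL4A2 did not without control replicate 3 or biosimilar replicate 8 (edgeR adjusted p = 0.0528 and 0.0549).

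**Figure D2:**
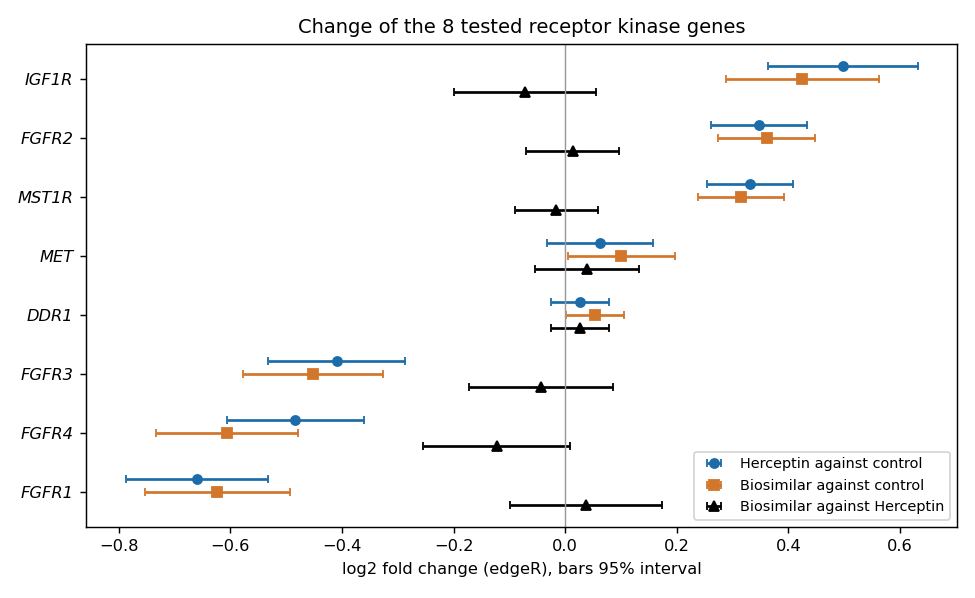
Log2 fold change of each tested receptor in the 3 comparisons, with 95% intervals from the edgeR fit (n = 8 libraries per group). Intervals for IGF1R, MST1R and FGFR2 lie above 0 and those for FGFR1, FGFR3 and FGFR4 below 0 against control for either antibody, and all intervals for biosimilar against Herceptin include 0.

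The 4 fibroblast growth factor receptors split, 1 rising and 3 falling. They are close relatives, so reads could in principle be divided among them. The longest stretch shared by any pair was 23 to 39 bases over 208 annotated transcripts of the 10 genes, against reads of 126 bases, and the counts of FGFR1, FGFR2, FGFR3 and FGFR4 were whole in every library. The longest stretches shared by the pairs without FGFR1 show how short these are. They are printed 5′ to 3′ from the annotated transcripts on GRCh38 and lie in coding sequence of at least 1 transcript of each gene.
FGFR3 and FGFR4: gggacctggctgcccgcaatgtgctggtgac
FGFR2 and FGFR4: gatgcccagccccacatccagtgg
FGFR2 and FGFR3: gagatggagatgatgaagatgat

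FGFR2 (chr10:121478334-121598458, minus strand), which in epithelial cells is usually spliced to a form that binds FGF7 and FGF10, was the FGFR gene that rose. Its lowest, median and highest levels were 37.3, 40.9 and 44.5 CPM in control, 48.7, 51.0 and 56.8 CPM with Herceptin and 48.6, 51.4 and 58.3 CPM with the biosimilar. No antibody library overlapped control. It rose by 27.2% with Herceptin (log2 fold change 0.35, SE 0.043, edgeR adjusted p = 8.68e-09) and by 28.4% with the biosimilar (log2 fold change 0.36, SE 0.043, edgeR adjusted p = 4.57e-09).

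FGFR1 (chr8:38400215-38468834, minus strand) showed the largest fall of the receptors tested. Its levels were 12.7, 14.1 and 15.4 CPM (lowest, median, highest) in control, 7.83, 8.79 and 9.95 CPM with Herceptin and 8.47, 9.22 and 10.1 CPM with the biosimilar. The highest antibody library lay well under the lowest control library. FGFR1 fell by 36.7% with Herceptin (log2 fold change -0.66, SE 0.063, edgeR adjusted p = 2.24e-11) and by 35.1% with the biosimilar (log2 fold change -0.62, SE 0.064, edgeR adjusted p = 1.40e-10). The gene LETM2 on the opposite strand shares 138 exon bases with FGFR1 and averaged 0.769 CPM, and the strand setting of the counting is not given in the sources used here.

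FGFR3 (chr4:1793293-1808872, plus strand) levels were 19.9, 23.3 and 26.0 CPM in control, 15.5, 17.2 and 19.6 CPM with Herceptin and 14.5, 17.0 and 18.9 CPM with the biosimilar. The ranges did not overlap, with the highest Herceptin library just below the lowest control library. FGFR3 fell by 24.7% with Herceptin (log2 fold change -0.41, SE 0.061, edgeR adjusted p = 4.58e-07). With the biosimilar it fell by 26.9% (log2 fold change -0.45, SE 0.062, edgeR adjusted p = 9.20e-08). FGFR4 (chr5:177086886-177098144, plus strand), known as the receptor for FGF19 together with the co-receptor KLB, ran through 17.3, 18.6 and 21.7 CPM in control, 12.7, 13.3 and 14.95 CPM with Herceptin and 10.5, 12.3 and 14.6 CPM with the biosimilar. Again no antibody library reached the control range. FGFR4 fell by 28.5% with Herceptin (log2 fold change -0.48, SE 0.061, edgeR adjusted p = 1.51e-08) and by 34.3% with the biosimilar (log2 fold change -0.61, SE 0.063, edgeR adjusted p = 1.70e-10).

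To set the 4 receptors beside each other, levels were divided by the length of each gene's merged exons. FGFR2 made up 35.8% ± 2.0 (SD, n = 8) of the summed FGFR level per length in control libraries, 49.5% ± 1.5 in Herceptin libraries and 50.9% ± 2.6 in biosimilar libraries. The control range of 32.4% to 38.7% lay below the Herceptin range of 46.8% to 51.5% and the biosimilar range of 48.1% to 55.5%. The share was 13.7 percentage points higher with Herceptin and 15.1 points higher with the biosimilar (exact permutation test over libraries, two-sided, p = 0.000155 in both, the smallest that 12870 regroupings allow, 0.000466 adjusted over 6 tests). FGFR3 went from 31.6% to 25.8% and 25.4% of the sum, FGFR4 from 25.9% to 20.1% and 18.8%, and FGFR1 from 6.73% to 4.62% and 4.84%. The shares of FGFR2, FGFR3 and FGFR1 depend on the length used. With the deposited effective length FGFR2 was 41.0% in control and 55.7% and 57.0% with the antibodies. FGFR3 was then 16.3%, 13.1% and 12.8%, and FGFR1 was 16.7%, 11.3% and 11.8%, so that FGFR1 was no longer the smallest share in control. FGFR4 changed little with that length, at 26.1%, 19.9% and 18.5%. The summed level was 15.07 ± 0.88 CPM per kb in control libraries, 13.87 ± 0.49 in Herceptin libraries and 13.61 ± 0.67 in biosimilar libraries. It was lower with Herceptin (exact permutation p = 0.00233, 0.0035 adjusted) and with the biosimilar (exact permutation p = 0.0014, 0.0028 adjusted), although the ranges overlapped, with 14.17 the lowest control value and 14.56 and 14.82 the highest antibody values. Between biosimilar and Herceptin the share differed by 1.49 points (exact permutation p = 0.187, 0.224 adjusted). The share rests on the FGFR genes tested above and is not a separate line of evidence.

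**Figure D3:**
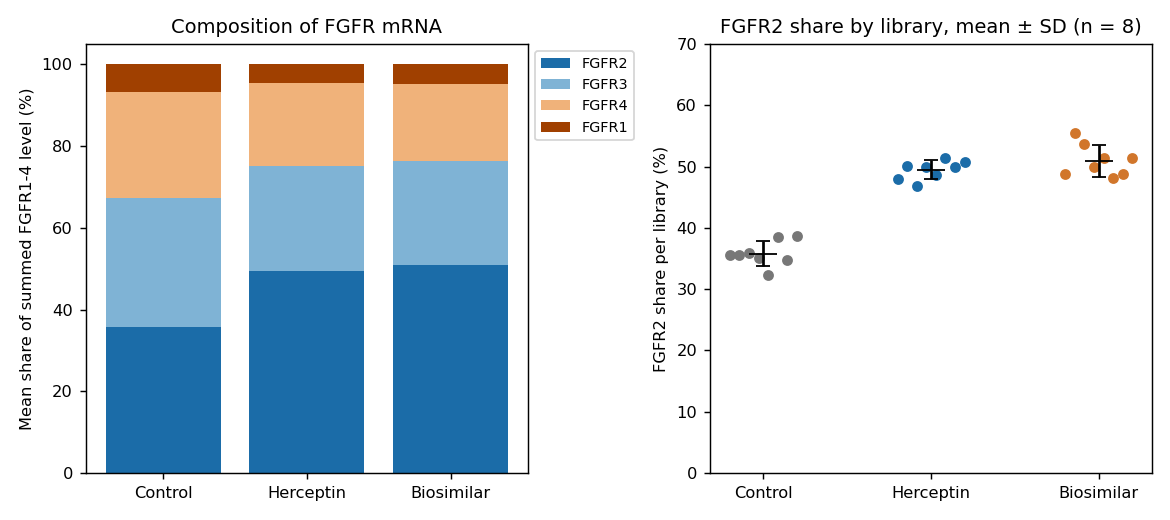
The left panel stacks the mean share of each FGFR gene in the summed FGFR1 to FGFR4 level per length, in percent, for each group, and the right panel gives the FGFR2 share in each library with the mean ± SD (n = 8). With merged exon lengths the FGFR2 share is 32.4% to 38.7% in control and 46.8% or more in every antibody library.

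Of 32 genes of FGF ligands and co-receptors, 8 were tested and 7 were at 0 in every library. Herceptin libraries had 5 higher and 0 lower, and biosimilar libraries 4 higher and 1 lower. Over all genes 46.4% passed with Herceptin and 48% with the biosimilar. FGF1, a ligand of all 4 receptors, rose from 3.72 ± 0.72 CPM to 7.11 ± 0.67 CPM with Herceptin (log2 fold change 0.93, edgeR adjusted p = 7.84e-10) and 6.73 ± 0.81 CPM with the biosimilar (log2 fold change 0.85, edgeR adjusted p = 1.02e-08), and neither antibody group overlapped control. SDC4, a heparan sulfate carrier that acts as a co-receptor, rose from 142.2 to 164.8 and 169.5 CPM. HS6ST1, which sulfates heparan sulfate, was at 58.2, 64.5 and 63.3 CPM, with overlapping ranges. The carrier GPC1 rose from 24.5 to 27.1 CPM with Herceptin (edgeR adjusted p = 0.0235) and was 25.8 CPM with the biosimilar, where it did not pass. Its Herceptin call was lost without control replicate 6, 7 or 8 or Herceptin replicate 1 (edgeR adjusted p = 0.0562 to 0.0708). SDC1, another carrier, was at 689.0 CPM in control and did not pass in either comparison. FGF11 and FGF12 stay inside the cell and are not known as receptor ligands: FGF12 rose from 0.67 CPM to 1.2 CPM in either antibody group, and FGF11, with counts not whole in 66.7% of libraries, was 1.85, 1.41 and 1.02 CPM and fell with the biosimilar (log2 fold change -0.85, edgeR adjusted p = 0.0156). That call was lost with limma-voom (adjusted p = 0.0609).

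**Figure D4:**
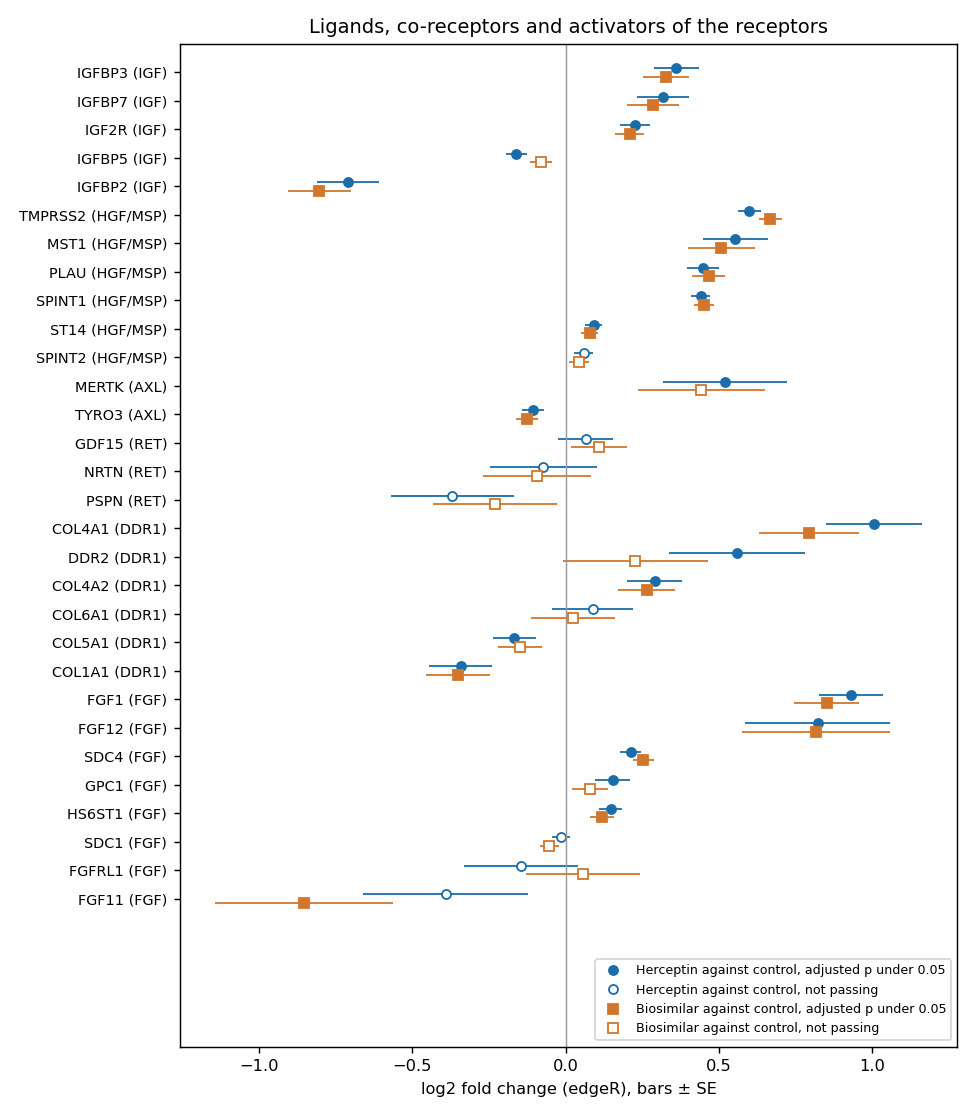
Log2 fold change against control, with bars of ± 1 SE, of the tested ligands, binding proteins, activating proteases, relatives and co-receptors, for Herceptin (circles) and the biosimilar (squares), with n = 8 libraries per group; filled symbols passed in edgeR and open ones did not. COL4A1, FGF1 and FGF12 rise by 0.79 or more with either antibody. The lowest filled symbols belong to IGFBP2 and, for the biosimilar, FGF11, which did not pass with limma-voom.

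Of the splicing regulators listed for FGFR2, 4 were tested. PTBP1, a general repressor of exons, fell from 295.7 ± 13.6 CPM to 266.8 ± 4.6 and 262.8 ± 5.0 CPM (log2 fold changes -0.15 and -0.17, edgeR adjusted p = 1.06e-05 and 9.89e-07). ESRP1, which promotes the epithelial form, was 40.1 CPM in control, 42.2 CPM with Herceptin (edgeR adjusted p = 0.160) and 44.5 CPM with the biosimilar (log2 fold change 0.15, edgeR adjusted p = 0.00484). ESRP2, at 129.3 CPM in control, did not pass with Herceptin or the biosimilar (edgeR adjusted p = 0.0718 and 0.145). RBFOX2, at 44.7 CPM in control, did not pass either (edgeR adjusted p = 0.0859 and 0.120). Leaving out single libraries brought ESRP2 past the threshold with Herceptin and RBFOX2 with either antibody. Counts per gene do not show which FGFR2 form was made.

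Among docking proteins and adaptors that receptor kinases share, 21 of 26 were tested. Herceptin libraries had 7 higher and 3 lower, biosimilar libraries 7 higher and 4 lower, and the median log2 fold changes were 0.03 and 0.02. These counts are near the share over all genes, of which 46.4% passed with Herceptin and 48% with the biosimilar. Without biosimilar replicate 6 the biosimilar counts were 8 higher and 5 lower, as PTPN11 and SH2B1 then passed (edgeR adjusted p = 0.0156 and 0.0491). GAB2 rose from 5.06 ± 0.74 CPM to 9.36 ± 0.73 CPM (log2 fold change 0.88, edgeR adjusted p = 7.53e-11) and 8.97 ± 1.00 CPM (log2 fold change 0.82, edgeR adjusted p = 7.24e-10). GRB7, whose gene lies beside ERBB2, rose from 263.0 to 352.8 and 350.9 CPM. GAB1, the main docking protein of MET, rose from 40.7 to 49.6 and 48.6 CPM, and SOS2, an exchange factor for RAS, from 48.5 to 60.4 and 62.6 CPM. Control did not overlap the antibody groups for GAB2, GRB7 and SOS2, and it overlapped the biosimilar group for GAB1. IRS1 and IRS2, the docking proteins of IGF1R, were also among those that rose, IRS1 from 10.1 to 12.9 and 12.3 CPM and IRS2 from 1.03 to 2.05 and 2.00 CPM. Those that fell with either antibody were DOK4, from 10.4 to 8.54 and 8.26 CPM, PLCG1, from 58.7 to 52.2 and 52.7 CPM, and SHC1. SHC1 went from 105.0 to 98.4 and 96.0 CPM, with counts not whole in 100% of libraries. GRB2 fell with the biosimilar, from 137.5 to 125.8 CPM, and did not pass with Herceptin (edgeR adjusted p = 0.0649). Of 25 other genes listed as receptor tyrosine kinases only 6 were tested. With either antibody 2 of these were higher, CSF1R and LMTK2, and 0 lower. Over all genes 22.7% were higher with Herceptin and 23.4% with the biosimilar. CSF1R, the receptor for colony-stimulating factor 1, rose from 33.0 to 43.1 and 42.0 CPM.

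Between the biosimilar and Herceptin, 0 of the 8 tested receptors passed in edgeR, and 0 had an unadjusted p under 0.05. Of all 13536 genes 0% passed (722 had an unadjusted p under 0.05, and DESeq2 called 8 and limma-voom 0). The smallest unadjusted p among the receptors was 0.0662, for FGFR4, which averaged 13.5 CPM with Herceptin and 12.3 CPM with the biosimilar (log2 fold change -0.12, 95% interval -0.25 to 0.01, edgeR adjusted p = 0.939). For IGF1R the log2 difference was -0.07 (95% interval -0.20 to 0.06), for MET 0.04 (-0.05 to 0.13), for MST1R -0.02 (-0.09 to 0.06) and for DDR1 0.03 (-0.03 to 0.08). For FGFR1 it was 0.04 (-0.10 to 0.17), for FGFR2 0.01 (-0.07 to 0.10) and for FGFR3 -0.04 (-0.17 to 0.08). All 8 pairs of ranges overlapped, where 0.0296% of all genes did not overlap. No interval reached a difference of more than 1.19-fold in either direction, and a p above the threshold does not show that the levels were equal. In every list of ligands, partners and docking proteins 0 genes passed between the biosimilar and Herceptin.

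Ordered by level per length of merged exons in control, DDR1 came first at 38.0 CPM per kb, followed by MST1R at 8.45, FGFR2 at 5.39, FGFR3 at 4.76, MET at 4.72, FGFR4 at 3.91, IGF1R at 1.38 and FGFR1 at 1.01 CPM per kb, with AXL and RET at 0.0072 CPM per kb. Neighbours whose ranges overlapped were FGFR2 and FGFR3, FGFR3 and MET, MET and FGFR4, IGF1R and FGFR1, and AXL and RET. The order of the middle genes depends on the length used: with the longest transcript 3 of the 10 kept their place in control, and with the effective length deposited by the authors 6 of the 10. DDR1 was first, and AXL and RET were last, with all 3 lengths.

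As a description, the genes whose centred log2 level followed each receptor most closely over the 24 libraries were sought among 9220 genes of at least 10 CPM. For IGF1R they were NEDD9, DOCK5 and SNX29, with a root mean square difference of 0.101 to 0.110 on the log2 scale. For MST1R they were TRPM4, LAMB2 and TINCR (0.063 to 0.067), and for MET they included SPTLC2 and CLTC (0.064 and 0.065). For DDR1 they were MEPCE, PCBP1 and UBA1 (0.032 to 0.037), although DDR1 itself varied by only 0.045 about its mean. For FGFR1 they were CCDC138, LBR and NPR3 (0.110 to 0.117), and for FGFR2 UBE2H, NUDT4 and CTNND1 (0.059 to 0.063). For FGFR3 they were CTAG2, HRAS and H1FX (0.107 to 0.108), and for FGFR4 ASS1, MYBL2 and C20orf27 (0.107 to 0.109). Counts of MEPCE, PCBP1, NUDT4, CTAG2 and H1FX were not whole in 79.2% or more of libraries. The libraries share their group differences, and no test was made.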

How the data were processed

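PolyA RNA of 24 SKBR3 libraries was sequenced as 126-base paired ends with a stranded kit, per the labels' protocols. The authors deposited expected counts per gene, made with FastQC, STAR and RSEM on GRCh38.p12 per the submitters' processing notes. RSEM divides reads that fit several places, so a count need not be whole (9.29% of values were not). How reads were trimmed, which annotation release was used and how strand was set is not given in the sources used here. The labels name 8 replicates per group but not whether they were processed as separate batches, so the p-values cover the spread among these libraries alone, and that spread may be technical.

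Counts were rounded and fitted in edgeR 4.0.16 (R 4.3.3), with TMM factors, filterByExpr, robust quasi-likelihood fits of all 24 libraries in 3 groups and the quasi-likelihood F test. P-values were adjusted by the Benjamini-Hochberg method across the 13536 tested genes and called below 0.05. Intervals are 95% intervals from the fitted standard error. The fit was also run on simulated data in which few genes changed and the spread was uniform. That setting differs from these data, so it does not show how the fit performs here. CPM used TMM-scaled totals. Levels per length and gene coordinates used GENCODE 29, and promoter windows came from RefSeq (GRCh38.p14). The FGFR2 share and summed FGFR level were compared by exact permutation. All 84 pairs of libraries of 1 group differed beyond sampling noise (chi-square per degree of freedom 1.515 to 7.912). This does not show whether the libraries came from separate cultures, and each library was treated as 1 replicate. The common biological coefficient of variation was 4.90%.

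The members and the gene lists were chosen with earlier results of these data known. All 10 receptors are named, with up to 4 called genes per list by smallest p with Herceptin, any tested direct ligand, co-receptor or activator, and the 3 genes of closest pattern per receptor, of which 1 is not reported here. IRS1, IRS2, SPINT2, TIMP3, VIM, ZEB1, CD68, CDH5, FN1, ESRP1, ESRP2, RBFOX2 and the untested ligands were named besides, after their values were seen. SHC1, PLCG1, DOK4 and GRB2 were added in the same way. DESeq2 1.42.0, limma-voom (limma 3.58.1), other scalings, filters and samples were tried as alternatives.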

Additional observations from a re-analysis of the deposited data

Results flagged for a closer look

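Among the 33 groups of 8 libraries examined for 1 library far from the rest, 3 held one, and chance alone gives about 1 in 20. IGF1R in Herceptin replicate 2 was 30.8 CPM, beside 25.5 to 27.8 CPM in the other 7 Herceptin libraries, and it lies on the side away from control. MET in Herceptin replicate 6 was 37.5 CPM, beside 33.4 to 34.9 CPM in the others. RET in biosimilar replicate 3 was 0.0996 CPM, which is 1 count, beside 0 in the others.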

How the results depend on the processing

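The counts of receptors that changed against control, 3 higher and 3 lower with either antibody, were the same with DESeq2, limma-voom, DESeq2's size factors, library totals alone, no filter, a stricter filter (at least 1 CPM in at least 8 libraries), only the 2 groups compared and the replicate number as a block. Leaving out 1 library at a time also gave 3 and 3, except that 3 to 4 rose with the biosimilar, where MET or DDR1 passed. The replicate block gave 3193 genes higher and 3391 lower with Herceptin, against 3068 and 3215 without the block. With the biosimilar it gave 3278 higher and 3457 lower, against 3162 and 3333. Deviations of same-numbered libraries correlated between -0.0779 and 0.102 over 24 pairs, 1 of them above 0.1. Low correlations over all tested genes cannot exclude a shared plate or day, so whether the numbers pair the libraries is not known. Between the biosimilar and Herceptin, 0 receptors passed under any of these settings. Over all genes that comparison gave 8 lower genes with DESeq2, 11 lower and 1 higher with no filter and 14 lower with the replicate block. The log2 fold change of FGFR2 between the biosimilar and Herceptin changed sign, from 0.01 to -0.0077 without biosimilar replicate 2 and to -0.000664 without biosimilar replicate 4, both within its interval. With leave-one-out it ranged from -0.0077 to 0.0324. Of the 10 receptors, 3 kept their place in the control order with the longest transcript and 6 with the deposited effective length, an alternative chosen after seeing the data, since these lengths differ between genes. The FGFR2 share and the summed FGFR level kept their calls with all 3 lengths. Depth limits AXL and RET, which entered the test only with no filter, with log2 fold changes of 0.17 and -0.87 with Herceptin and 0.99 and -1.36 with the biosimilar that did not pass (adjusted p = 0.429 to 1). Counts of called genes in most of the lists of partners and markers also moved by 1 under some settings, and the cause was not tested.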
